A study of Homo sapiens with 16 samples.

Results

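The CYP4F genes are a family of cytochrome P450 enzymes encoded side by side on chromosome 19. The 6 genes described here, CYP4F2, CYP4F3, CYP4F8, CYP4F11, CYP4F12 and CYP4F22, were taken by symbol and chromosome from the 58787 Ensembl gene identifiers of the count table, and each matched 1 identifier. CYP4F3 was chosen by its measured rise in counts after knockdown of TPX2 in these same libraries, so its values against the control are given as a description with no test. The other 5 genes were listed for their family and place. The list was drawn up with earlier results of these libraries known.

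The cells were IMR32, an established human neuroblastoma line with amplified MYCN, which the labels describe as neuroblasts with brain as the tissue. TPX2 encodes a spindle protein that activates the mitotic kinase AURKA. It was knocked down with 3 small interfering RNAs named si45, si46 and si47, and the control was a non-targeting siRNA named siNTC. Each of the 4 groups had 4 replicates, which the series calls biological, and the column names of the table give 48 h. All groups were the same line, so no comparison reaches beyond it, and separate cultures, transfection agent and siRNA dose were not stated in the labels.

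Cytochrome P450 enzymes are haem proteins that insert oxygen into lipids, vitamins and drugs. The CYP4 families attack the far end of a fatty acid chain (omega-hydroxylation), the first step of a route by which long chains and lipid mediators are broken down. The CYP4F enzymes are best known from liver, kidney, neutrophils and skin, not from neuroblastoma. CYP4F3 inactivates leukotriene B4, a lipid that attracts neutrophils, and its splice forms differ in the substrates they prefer. CYP4F2 hydroxylates arachidonic acid and the side chains of vitamins K and E. CYP4F8 is a prostaglandin hydroxylase of seminal vesicles, CYP4F11 and CYP4F12 act on fatty acids and drugs in liver and gut, and CYP4F22 makes the omega-hydroxylated acids of skin acylceramides.

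Reads came from a 3' end kit (QuantSeq), which samples the end of each polyadenylated transcript, so a count stands for a transcript and not for a length of it. Total counts were 5318159 to 7864343 per library, with a median of 5966582. TPX2 was at 327 ± 27.1 CPM (counts scaled to a common library size; SD, n = 4) in the controls, 91.6 ± 19.8 under si45, 81.7 ± 14.3 under si46 and 71.5 ± 3.37 under si47, below every control library in all 12. All 8 neuroblastoma markers, among them PHOX2A, HAND2, GATA3, ISL1, DBH, TH and MYCN, had a group mean over 1 CPM in each group, and their summed level was 5100 to 6436 CPM per library. Defining markers of cell types known for CYP4F expression were at or near 0, with KRT10 as an exception. The 7 neutrophil markers summed to 0.169 to 2.05 CPM with MPO, ELANE, FCGR3B, S100A8 and S100A9 at 0 counts, and the 6 hepatocyte markers summed to 0.160 to 1.68 CPM with FGB, SERPINA1 and APOB at 0 counts. KRT5, KRT14 and KRT1 of the keratinocyte list and CDX2 and FABP2 of the intestinal list were also at 0 counts in all libraries, while KRT10 was at 41.5 CPM in siNTC and 47.8 CPM over the knockdown libraries. COL1A1 of the 4 fibroblast markers was at 37.1 and 34.8 CPM, and the other 3 markers of that list averaged at most 0.353 CPM. Of the 3 lymphocyte markers, CD3E was at 0 counts, PTPRC averaged 1.62 CPM in siNTC and 0.587 CPM over the knockdown libraries, and CD79A was at 0 and 0.158 CPM.

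The 6 genes are close copies, which matters for how their reads can be told apart. Over the coding sequence of the main transcripts (GENCODE 29), CYP4F3 was 91.5% identical to CYP4F2, 86.3% to CYP4F11, 84.6% to CYP4F12, 84.4% to CYP4F8 and 72.0% to CYP4F22. The stretch that codes for the haem-binding signature, where the enzyme holds its iron through a cysteine, shows this at the level of bases. The lines give its 30 bases from coding base 1381 to 1410 (1402 to 1431 in CYP4F22), on the coding strand, and capitals mark bases that differ from CYP4F3.
CYP4F3: ttctcagcagggcccaggaactgcatcggg
CYP4F2: ttctcGgcagggcccaggaactgcatcggg
CYP4F12: ttctcCgcagggcccaggaactgcatcggg
CYP4F8: ttctcGgcGgggcccaggaactgcatcggg
CYP4F11: ttctcGgcagggcccagAaactgcatcggg
CYP4F22: ttctcTgcaggAcccaggaaTtgcatcggA
CYP4F2 and CYP4F12 differed from CYP4F3 at 1 of these bases, CYP4F8 and CYP4F11 at 2 and CYP4F22 at 4.

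Around the stop codon CYP4F3 and CYP4F2 were closer still. A 3' end kit reads from transcript ends, and these differed in how much they shared. The last 30 coding bases, stop codon included, were the same in both genes, and CYP4F8 had 4 differences, marked by capitals.
CYP4F3: ctttggctgcgggtggagcccctgagctga
CYP4F2: ctttggctgcgggtggagcccctgagctga
CYP4F8: ctttggctgcgAgtAgaAcccctgGgctga
This stretch lies in a run of 172 bases that CYP4F2 and CYP4F3 share without a difference, and beyond the stop codon 699 of 737 aligned bases (94.8%) were identical. The longest identical runs with CYP4F3 were 69 bases in CYP4F8, 64 in CYP4F11, 54 in CYP4F12 and 21 in CYP4F22. CYP4F3 has 4 annotated transcript ends. In the last 500 bases of its main transcript, which runs on for 3440 bases after the stop codon, 0 windows of 50 or of 100 bases were found in another gene. At its earliest end 49.7% of the 50-base windows and 22.4% of the 100-base windows were also in CYP4F2. For the main CYP4F2 transcript, which has 748 bases after the stop codon, 4.88% of the 50-base and 0 of the 100-base windows were in CYP4F3. At the CYP4F3 ends at 15660758 and 15660126, 0 and 4.88% of the 50-base windows were in another gene. At the shorter CYP4F2 ends at 15878300 and 15878623, 30.8% and 38.4% were. Exact reads of both genes could thus be told apart at most or all positions of the main ends. Such positions were fewer at the earliest CYP4F3 end and at the shorter CYP4F2 ends. The last 500 bases of the main CYP4F2 transcript still lie in the stretch after the stop codon that was 94.8% identical to CYP4F3 over aligned bases. Few mismatches separate reads there, and reads with mismatches were not examined. Which ends were used, and how reads with several matches were counted, is not given in the sources used here.

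CYP4F3 was near the lower limit of detection in control cells and at a mid-range level under each TPX2 siRNA. CYP4F3 (ENSG00000186529) lies on chromosome 19 at 15640897 to 15662825 on the plus strand (GRCh38, GENCODE 29). Its counts were 8, 2, 7 and 1 in siNTC replicates 1 to 4. They were 53, 126, 31 and 37 under si45, 84, 117, 29 and 87 under si46, and 124, 169, 74 and 113 under si47. All 12 knockdown libraries were above all 4 control libraries, and the lowest of them, si46 replicate 3, had 29 counts against at most 8 in a control.

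In CPM, the siNTC replicates were at 1.28, 0.313, 1.32 and 0.173, with a mean of 0.773 ± 0.615 (SD, n = 4). The si45 replicates were at 8.23, 19.3, 5.37 and 6.999 (9.97 ± 6.31) and the si46 replicates at 10.6, 21.3, 4.88 and 16.2 (13.3 ± 7.07). The si47 replicates were at 19.5, 30.7, 12.4 and 19.1 (20.4 ± 7.55). Group means were thus in the order siNTC, si45, si46, si47, while the 3 siRNA groups overlapped one another. Higher RNA in a few cells and in all cells cannot be told apart in these bulk libraries.

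**Figure D1:**
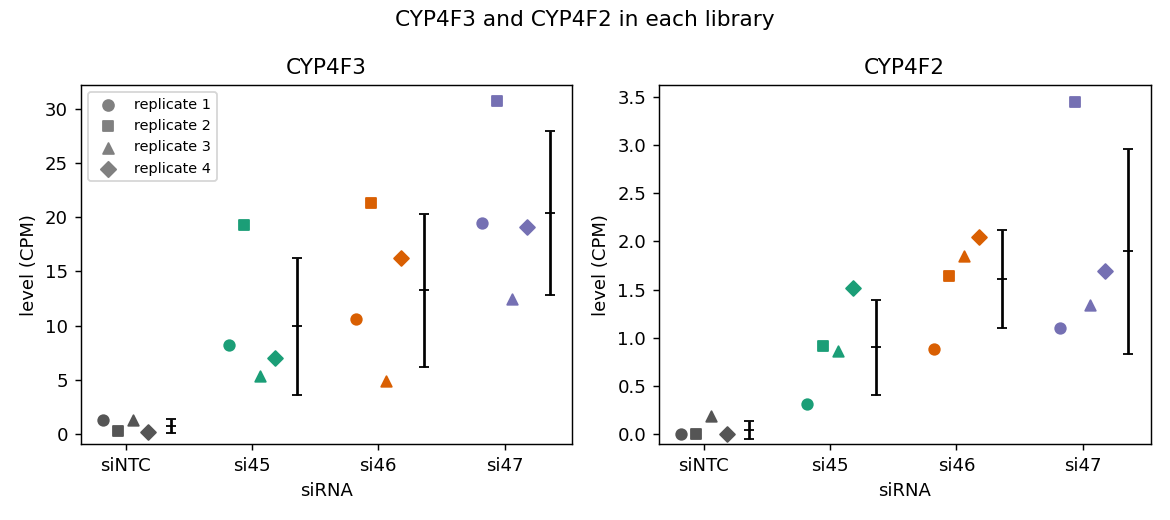
CYP4F3 (left) and CYP4F2 (right) in CPM on the vertical axes, by siRNA on the horizontal axes, with 1 point per library, its shape giving the replicate number, and bars for the mean ± SD of 4 libraries. CYP4F3 lies between 0.173 and 1.32 CPM in siNTC and between 4.88 and 30.7 CPM under the 3 siRNAs, and CYP4F2 lies at or under 0.189 CPM in siNTC and reaches 3.45 CPM in si47 replicate 2.

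The fitted log2 fold changes of CYP4F3 against siNTC were 3.69 (SE 0.692) for si45, 4.07 (SE 0.680) for si46, 4.70 (SE 0.663) for si47 and 4.15 (SE 0.622) for the mean of the 3, or 12.9-fold, 16.8-fold, 26.1-fold and 17.8-fold. Among 14193 tested genes these ranked 17th, 15th, 11th and 13th from the top. The control group held 18 counts in all, so these sizes are imprecise. Ratios of the summed counts to those of siNTC, scaled to library size, were 13.5 (95% exact interval 8.38 to 23.2) for si45, 16.9 (10.5 to 28.9) for si46 and 26.6 (16.7 to 45.3) for si47. These intervals cover counting error alone, not the spread between replicates. On the CPM scale 1.37% of the tested genes were below CYP4F3 in siNTC, against 35.2% in si45, 41.0% in si46 and 50.7% in si47.

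Whether CYP4F3 differed between the 3 siRNAs was a question its choice did not use, and it was tested with edgeR's quasi-likelihood test over all genes. The si47 group exceeded si45 by 1.02 on the log2 scale (SE 0.469, interval of 2 SE 0.08 to 1.96), which did not pass (edgeR unadjusted p = 0.0480, adjusted p = 0.475; 0.169% of genes passed in this comparison). The si46 group exceeded si45 by 0.39 (SE 0.478, interval -0.57 to 1.34, edgeR adjusted p = 1; 0.0282% passed). The si47 group exceeded si46 by 0.63 (SE 0.461, interval -0.29 to 1.55, edgeR adjusted p = 0.841; 0.0493% passed). These intervals include differences as large as 2-fold in each pair.

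The spread within the siRNA groups followed the replicate number. In siNTC, where CYP4F3 had at most 8 counts, replicate 3 was instead the highest at 1.32 CPM. Replicate 2 had the highest and replicate 3 the lowest CYP4F3 level in each of the 3 siRNA groups, and si47 was above si45 in 4 of 4 same-numbered pairs. Same-numbered si45 and si47 libraries deviated together over all genes, a hint of pairing that is described under the processing. Other pairs of groups gave such a hint too. With the replicate number as a block, the difference between si47 and si45 was 1.09 (SE 0.256) and passed (edgeR adjusted p = 0.0118; 2.8% of genes passed with the block). Over the 21 alternative settings that gave an adjusted p for this difference, it ran from 1.74e-04 to 0.694. Replicate 3 had the highest remaining TPX2 in each siRNA group, at 121 CPM in si45, 93.8 in si46 and 76.3 in si47. In si46 replicate 1 was close to it at 90.9 CPM. The lowest TPX2 fell on a different replicate in each group: 2 in si45, 4 in si46 and 1 in si47. The part of remaining TPX2 in the lower CYP4F3 of replicate 3 was not tested.

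**Figure D2:**
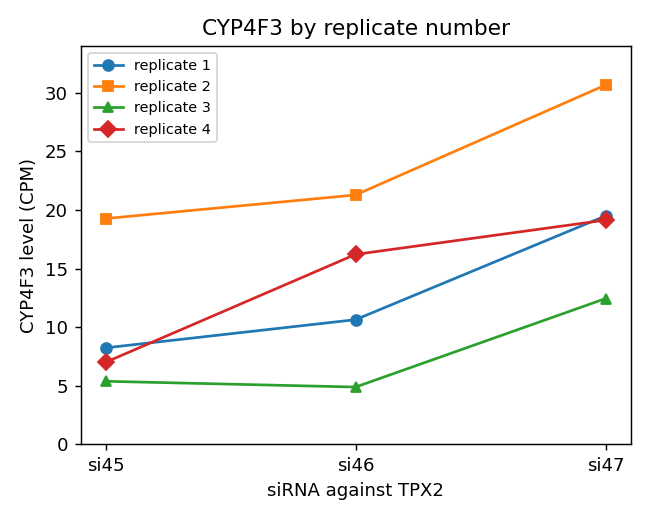
CYP4F3 in CPM on the vertical axis for the 3 siRNAs against TPX2 on the horizontal axis, with 1 point per library and a line joining libraries of the same replicate number. The replicate 2 line is highest (19.3, 21.3 and 30.7 CPM) and the replicate 3 line lowest (5.37, 4.88 and 12.4 CPM).

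CYP4F2 was the other member with more than a handful of reads, and they came almost entirely from knockdown libraries. CYP4F2 (ENSG00000186115) lies 215198 bases beyond CYP4F3, at 15878023 to 15898120 on the minus strand. Its counts were 0, 0, 1 and 0 in siNTC, 2, 6, 5 and 8 in si45, 7, 9, 11 and 11 in si46, and 7, 19, 8 and 10 in si47. Of its 104 counts, 103 were in knockdown libraries, and each knockdown library had more than each control library. As group means, siNTC was at 0.0473 ± 0.0946 CPM (SD, n = 4), while si45 reached 0.902 ± 0.492 CPM, si46 1.61 ± 0.509 CPM and si47 1.90 ± 1.06 CPM.

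CYP4F2 did not reach the low-count filter, which asked for 1.68 CPM in 4 libraries and found it in 3, so it had no test in the main fit. By plan, members under the filter were given by counts only, so values from the alternative fit with no filter are a description. With no filter, where 28981 genes were tested, its log2 fold changes were 3.85 (SE 1.11) for si45, 4.66 (SE 1.06) for si46 and 4.91 (SE 1.05) for si47. The edgeR adjusted p were 0.0463, 0.00126 and 1.99e-04, with 1.23%, 2.38% and 5.29% of genes past the threshold in these comparisons. For the mean of the 3 siRNAs it was 4.47 (SE 0.986, edgeR adjusted p = 4.31e-04; 4.38% passed). With 1 count in the controls the size is barely bounded: the ratio of summed counts, scaled to library size, was 33.7 for the 3 siRNAs together, with a 95% exact interval of 5.91 to 1342 for counting error. No pair of siRNAs differed in CYP4F2 at the threshold (edgeR with no filter, adjusted p = 0.828 for si46 against si45, 0.646 for si47 against si45 and 1 for si47 against si46, with 0.0483%, 0.573% and 0.152% of genes past it).

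Because the 2 genes share sequence, CYP4F2 was also given as a share of the CYP4F2 and CYP4F3 counts together. It was 7.84% in si45 (21 of 268, 95% exact binomial interval 4.92% to 11.7%), 10.7% in si46 (38 of 355, 7.69% to 14.4%) and 8.40% in si47 (44 of 524, 6.17% to 11.1%). These intervals overlapped. In siNTC it was 1 of 19 counts, with an interval of 0.133% to 26.0%. Single libraries ran from 3.64% in si45 replicate 1 to 27.5% in si46 replicate 3, where 11 of 40 counts were CYP4F2 (14.6% to 43.9%). Replicate 3 of si46 thus had the lowest CYP4F3 level of the 12 knockdown libraries together with the third highest CYP4F2 level. Whether reads of one gene were counted for the other was not tested.

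**Figure D3:**
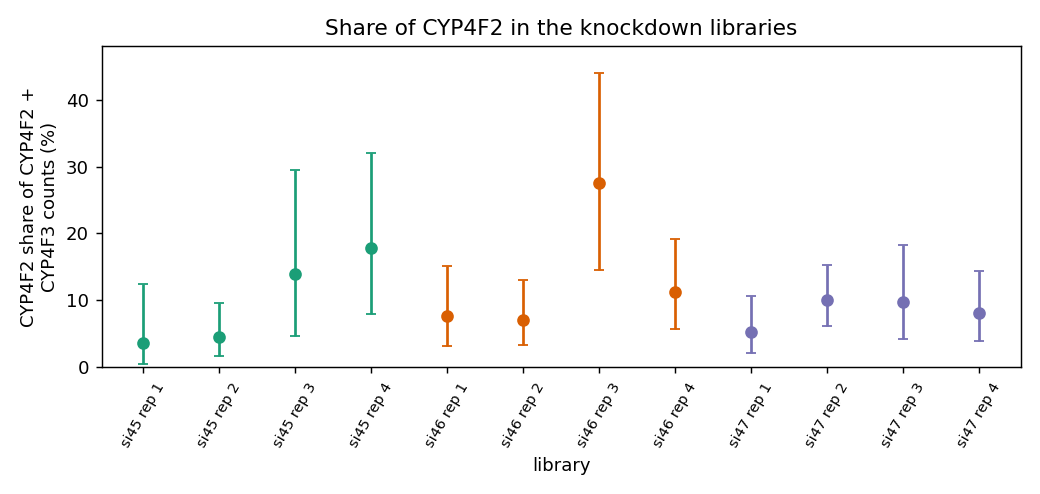
CYP4F2 counts as a percent of CYP4F2 plus CYP4F3 counts on the vertical axis in each of the 12 knockdown libraries on the horizontal axis, with 95% exact binomial intervals that cover counting error alone. Shares range from 3.64% to 27.5%, the latter in si46 replicate 3.

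The remaining 4 members were not detectably expressed at this depth. CYP4F12 (15672757 to 15697174, plus strand), which begins 9932 bases beyond the end of CYP4F3, had 5 counts in all: 1 in si46 replicate 3, 1 in si46 replicate 4 and 3 in si47 replicate 2. No count of it was seen in si45 or siNTC, and no library exceeded 3 counts, the upper limit that a count of 0 allows, so no fold is given. CYP4F8 (15615218 to 15630638, plus strand), whose end lies 10259 bases before CYP4F3, CYP4F11 (15912367 to 15934867, minus strand) and CYP4F22 (15508493 to 15552317, plus strand) had 0 counts in all 16 libraries. A count of 0 allows up to 0.380 to 0.567 CPM depending on the library. CYP4F3 in siNTC replicates 2 and 4, at 2 counts and 1 count, was itself under that limit. In all, 1 of the 6 members passed the low-count filter, so counts of members past the threshold say little about the family.

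The start regions of the genes were compared because CYP4F3 and CYP4F2 both had more reads under TPX2 siRNAs while CYP4F11 had 0 counts. RefSeq start-site windows (GRCh38.p14, 250 bases before to 50 after the start) matched 5 of the 6 members. The CYP4F3 window begins at 15641062, beyond the GENCODE start of its main transcript at 15640900, so the region before that start was not searched. The CYP4F2 window spans the GENCODE start of its main transcript, so the windows of the 2 genes may not correspond. The closest 30 bases to the CYP4F3 window were not in CYP4F2, whose best stretch had 18 of 30 bases in common, but in a second window of CYP4F11. The capital marks the base that differs.
CYP4F3, chr19:15641215-15641244, plus strand: gtaactggaggccacttggttgctggtttt
CYP4F11, chr19:15934578-15934607, minus strand: gtaactggaggccacttggCtgctggtttt
These stretches, 29 of 30 bases identical, begin 97 and 78 bases before the RefSeq starts. The 10-base p53 motif, searched because p53 target genes had risen in an earlier analysis of these libraries and symmetric so that both strands are covered, was in 0 of the 6 member windows. Of all 35116 windows 6.63% held it, and 0.0285% held a pair of them at most 13 bases apart. No match says only that these letters are not in these windows.

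Members aside, no tested gene around CYP4F3 on the chromosome had a difference of its size, though CYP4F3 was picked for its rise. CYP4F2, which had no test in the main fit, was at 4.47 in the mean of the 3 siRNAs with no filter. From 250 kb before the first member to 250 kb after the last, the annotation holds 49 other genes, of which 23 had any count and 10 could be tested. At an unadjusted p under 0.05 (edgeR), 1 of the 10 passed in the mean of the 3 siRNAs, beside 2901 of all 14193 tested genes. After adjustment none of the 10 passed in the mean (edgeR, and 0 by DESeq2), where 7.14% of all tested genes did. Their log2 fold changes ran from -0.34 to 0.39 with a median of -0.01, beside a median of -0.00113 over all tested genes. Under si45 and si46 0 of them passed (edgeR, adjusted), with 1.34% and 3.4% of all genes past the threshold. Without adjustment 1 was under 0.05 for si45 and 0 for si46, beside 1617 and 2124 of all tested genes.

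RPL23AP2, a ribosomal protein pseudogene that is the nearest tested neighbour, was at 0.39 with an SE of 0.672, larger than the value. Under si47, where 9.74% of all genes passed, 1 of the 10 did: RAB8A, a small GTPase of membrane traffic at the far edge, named after its values were seen. It fell by 0.40 (SE 0.108, edgeR adjusted p = 0.0129), and lost this call without siNTC replicate 1 (edgeR adjusted p = 0.0932). The pseudogenes CYP4F9P, CYP4F23P, CYP4F24P and CYP4F36P inside the window had 0 counts and CYP4F10P had 1, in a knockdown library. Of the untested neighbours with at least 10 counts, 2 unnamed genes, singled out after their values were seen, had counts in knockdown libraries alone. ENSG00000279717 (15904556 to 15907234), between CYP4F2 and CYP4F11, had 24 counts and 0 in siNTC, and ENSG00000268189 (15379076 to 15381194) had 16 counts and 0 in siNTC. At most 6 counts came from 1 library in either, so no fold is given.

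**Figure D4:**
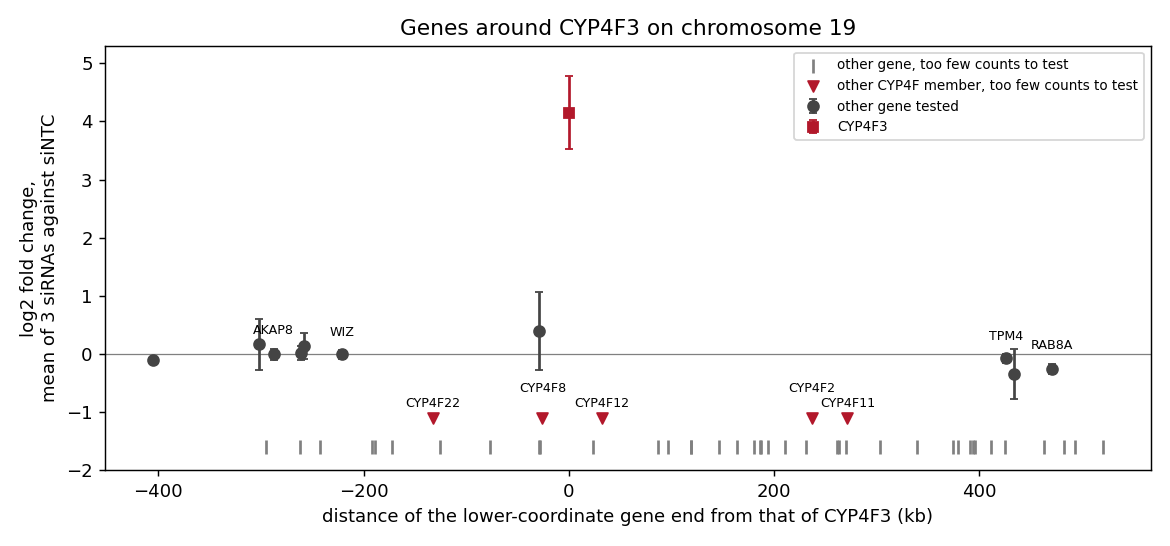
Log2 fold change in the mean of the 3 siRNAs against siNTC on the vertical axis, by distance from CYP4F3 along chromosome 19 in kb on the horizontal axis, for CYP4F3 (square) and the 10 other tested genes (circles), with bars of 1 SE. CYP4F3 is at 4.15 and the other tested genes lie between -0.34 and 0.39. Triangles and ticks mark members and other genes with too few counts to test, drawn at a fixed height that is no value.

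Differences of the other tested cytochrome P450 genes were also smaller than that of CYP4F3, which was picked for its rise. Of 51 P450 genes outside the cluster that were not annotated as pseudogenes 23 had a count and 10 could be tested. The 51 include CYP4F26P, with 3 counts, and CYP4F59P, with 0, which are pseudogenes by name. In each siRNA and in their mean 0 of the 10 passed (edgeR adjusted p), and DESeq2 called 0 for si47 and the mean. With no adjustment 3 were under 0.05 for si46, 3 for si47 and 0 for si45 and the mean (edgeR). Of all 14193 tested genes, 2124, 3310, 1617 and 2901 were under 0.05 in that order. After adjustment 1.34%, 3.4%, 9.74% and 7.14% of all tested genes passed in si45, si46, si47 and the mean. That makes 0 of 10 close to the background. Their log2 fold changes in the mean ran from -0.30 to 0.70 with a median of 0.11. The highest was CYP4V2, a fatty acid hydroxylase of the CYP4 family, with 2.46 ± 1.29 CPM (SD, n = 4) in the controls, 3.04 ± 0.650 under si45, 4.73 ± 0.797 under si46 and 4.64 ± 2.56 under si47 (mean log2 fold change 0.70, SE 0.353, edgeR adjusted p = 0.258). The lowest was CYP27C1, a retinoid desaturase, which went from 22.3 ± 2.91 CPM in siNTC to 15.0 ± 3.63 CPM in si47 (-0.57, edgeR adjusted p = 0.0658; with the replicate block 0.00775 and with no low-count filter 0.0396, where it passed). The CYP4 fatty acid hydroxylases CYP4A11, CYP4A22, CYP4B1, CYP4X1 and CYP4Z1 had 0 counts in all libraries. Of 49 P450 genes counted as pseudogenes 9 had a count, and 0 could be tested.

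**Figure D5:**
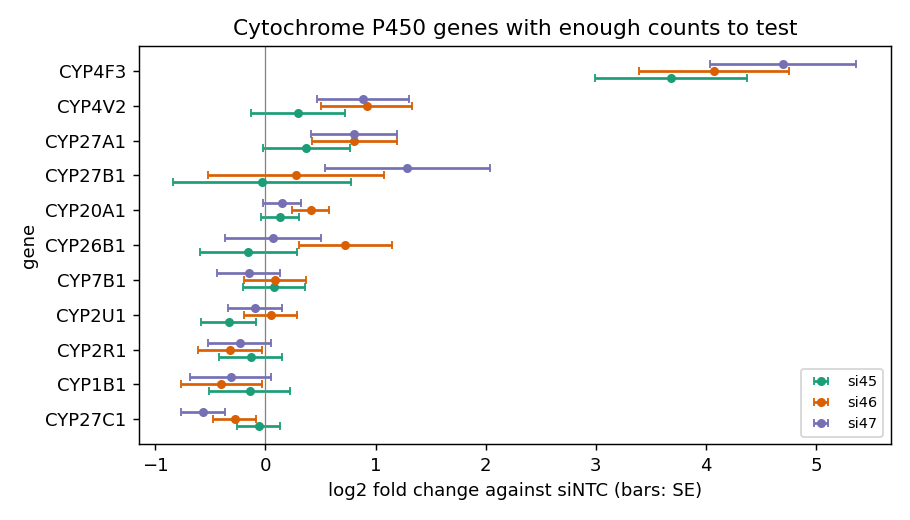
Log2 fold change against siNTC on the horizontal axis for CYP4F3 and the 10 other cytochrome P450 genes with enough counts, 1 row per gene on the vertical axis, coloured by siRNA, with bars of 1 SE. CYP4F3 lies at 3.69, 4.07 and 4.70, and the other genes between -0.57 and 1.29.

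The genes of leukotriene and prostaglandin metabolism, the pathway in which CYP4F3 inactivates leukotriene B4, had mostly few counts or no call. Of 30 listed genes 23 had a count and 12 could be tested, with a median log2 fold change of -0.08 in the mean of the siRNAs. ALOX5, which starts leukotriene synthesis, had 4 counts in all 16 libraries, its partner ALOX5AP had 1, and PLA2G4A, which frees arachidonic acid, had 0. LTA4H, which makes leukotriene B4, averaged 43.3 ± 11.9 CPM in the controls (SD, n = 4) and did not pass (0.06, SE 0.142, edgeR adjusted p = 0.872). At an unadjusted p under 0.05 (edgeR), 3 of the 12 passed in the mean, beside 2901 of all 14193 tested genes. After adjustment 1 of the 12 passed in the mean, a share near the 7.14% of all tested genes. It was PTGES2, a prostaglandin E synthase, which fell by 0.35 from 50.8 ± 3.63 CPM (SE 0.106, edgeR adjusted p = 0.0386). It lost this call in 10 of 16 fits that left out 1 library, with adjusted p up to 0.177 (edgeR, without siNTC replicate 1). The largest difference of the list in the mean was that of GGT5, which processes leukotriene C4 and is also named after its values were seen. It averaged 4.34 CPM in the controls and 2.15 CPM over the knockdown libraries and did not pass (-1.02, SE 0.345, edgeR adjusted p = 0.0653). Under si47, where 1 of the 12 passed and 9.74% of all genes did, LTB4R, a receptor of leukotriene B4, named after its values were seen, fell by 0.69 (SE 0.177, edgeR adjusted p = 0.00904) from 23.5 ± 2.03 to 14.5 ± 1.31 CPM.

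The electron donors and later steps of omega-oxidation were expressed, and in the mean of the siRNAs none of them passed. All 14 listed genes with a count could be tested, of 21 listed, with a median of 0.04. By edgeR 0 of them passed, beside 7.14% of all tested genes in this contrast. DESeq2 called 1, and its share of all genes in the mean is not given here. At an unadjusted p under 0.05 (edgeR), 2 of the 14 passed, beside 2901 of all 14193 tested genes. POR, which passes electrons to P450 enzymes, averaged 21.4 ± 1.85 CPM in the controls (SD, n = 4) and 22.3 ± 5.75 CPM in si47, and ALDH3A2, which oxidizes the fatty aldehydes, was at 29.2 ± 2.66 and 26.7 ± 4.06 CPM.

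For the vitamin substrates of CYP4F2, 7 of 8 listed genes could be tested, with a median of -0.01 in the mean. The 1 that passed, beside 7.14% of all genes in the mean and 9.74% under si47, was VKORC1. VKORC1, which recycles vitamin K, fell by 0.26 in the mean (SE 0.0789, edgeR adjusted p = 0.0400) and by 0.46 under si47 (SE 0.0986, edgeR adjusted p = 0.00175), from 116 ± 2.86 CPM (SD, n = 4) in siNTC to 84.2 ± 11.2 CPM in si47. The call in the mean was lost in 10 of 16 fits that left out 1 library, with adjusted p up to 0.121 (edgeR, without siNTC replicate 4), and with no low-count filter (edgeR adjusted p = 0.0552). GGCX, the carboxylase that uses vitamin K, was at 0.28 (SE 0.161, edgeR adjusted p = 0.332).

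For acylceramide synthesis and the skin barrier, where CYP4F22 acts, 7 of 15 listed genes could be tested, with a median of 0.01. ABCA12, a lipid transporter of keratinocytes, was the 1 of 7 that passed in the mean, at 2.75 on the log2 scale (SE 0.643, edgeR adjusted p = 0.00551), beside 7.14% of all tested genes. It reached the low-count filter only through knockdown libraries, so it was tested because it was high there and its calls support nothing further. Its siNTC replicates were at 0.48, 0, 0.57 and 0.17 CPM, with at most 3 counts each, so this size depends on few reads. The knockdown libraries were at 0.92 to 3.22 CPM in si45, 1.27 to 2.55 in si46 and 1.02 to 4.35 in si47, all above the controls. It passed under si46 (2.53, edgeR adjusted p = 0.0442) and si47 (3.03, edgeR adjusted p = 0.00452), where 3.4% and 9.74% of all genes did, and not under si45 (2.68, edgeR adjusted p = 0.0514; 0.0193 by DESeq2, 0.0182 with no filter and 0.0194 with the replicate block). The si46 call was lost in 11 of 16 fits that left out 1 library. When only the groups compared were fitted, ABCA12 did not reach the low-count filter. CERS3, which makes the ceramides that CYP4F22 products enter, had 1 count in all libraries.

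Genes whose level over the 16 libraries was most like that of CYP4F3 were sought among 11805 tested genes with a mean count of at least 20. Pearson's r of log2 CPM is a description here, since the libraries share groups and depth. It was 0.973 for PHLDA3, 0.963 for ID2, 0.962 for IER3, 0.961 for MTATP6P1 and 0.960 for the long non-coding RNA PINCR, against a median of -0.01 over these genes. PHLDA3, which encodes a small pleckstrin homology protein, averaged 13.3 ± 3.79 CPM in the controls (SD, n = 4), 38.1 ± 5.62 under si45, 44.3 ± 4.76 under si46 and 56.7 ± 5.67 under si47, the same order of group means as CYP4F3. PINCR averaged 0.304 ± 0.190 CPM in the controls against 7.88 ± 4.35, 7.13 ± 1.54 and 10.6 ± 3.76 CPM under the siRNAs in that order. MTATP6P1 is a nuclear copy of a mitochondrial gene, and how reads of both were divided is not known.

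After each group's mean was subtracted, a different set followed CYP4F3 from library to library. MAST4 had r = 0.890, MAN1A2 0.869, GRK5 0.850, PELI1 0.841 and ZNF528 0.833. These were the highest of 11805 genes, whose median was -0.00332, so the values are again a description. Whether they exceed what the highest of so many unrelated genes would reach was not tested. CYP4F3 had at most 8 counts in a control library. MAST4, which encodes a microtubule-associated kinase, averaged 8.85 ± 2.63 CPM in the controls (SD, n = 4) and 15.3 to 16.8 CPM as group means under the siRNAs. MAN1A2, a mannosidase of the Golgi, averaged 388 ± 48.6 CPM in the controls, 389 ± 27.4 under si45, 443 ± 50.9 under si46 and 498 ± 62.5 under si47. GRK5 and ZNF528 had log2 fold changes between -0.09 and 0.38 under the 3 siRNAs, far smaller than those of CYP4F3.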

How the data were processed

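Members and gene lists were chosen with earlier results of these data known. The authors deposited raw counts per Ensembl gene, 1 column per library, and all 16 were used. Per the submitters' processing notes, GRCh38, STAR 2.7.2b, FastQC 0.11.7, edgeR 3.36.0 and limma 3.50.3 were used, with no roles given. Strand use, several-match reads and collapsing of PCR duplicates are not given in the sources used here. Per the labels' protocols, libraries had 15 PCR cycles, so count intervals cover counting error alone. Symbols matched 58434 of 58787 identifiers and GENCODE 29 held 58515. Mitochondrial genes were not analysed here, so totals and CPM are without them. If replicates were not separate cultures, p-values measure technical spread. No 2 replicates agreed within sampling noise (chi-square per degree of freedom 4.36 to 9.80 over 24 pairs).

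Counts were fitted with edgeR 4.0.16 (R 4.3.3): filterByExpr (minimum count 10, minimum total 15), TMM, 1 robust quasi-likelihood fit of 4 group means, Benjamini-Hochberg adjustment over 14193 genes, threshold 0.05. The fit was tested on simulated data. Named genes were the 6 members, list genes past the threshold in the mean contrast (at most 5 per list), 5 most like CYP4F3 by each measure, and TPX2; others are said to be named after their values were seen. Lists covered the chromosome 19 window, P450 genes, eicosanoids, omega-oxidation, vitamins K and E, and acylceramides. Some items that the lists also covered are not reported here.

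Same-numbered si45 and si47 libraries deviated together from their group means (r = 0.120 to 0.242, over 0.1 in 4 of 4 pairs). This is a hint that the number pairs them, and it comes from the values, not the labels. In siNTC with si45, si45 with si46 and si46 with si47, 8 of 8 libraries also correlated best with their own number. The main fit had no term for the replicate number. Alternatives were RLE factors, DESeq2 1.42.0, no filter, only the groups compared, the replicate block, and leaving out each library. The block within only the groups compared was added after seeing the data. Sequences and annotation were from GENCODE 29 and RefSeq (GRCh38.p14), aligned with Biopython 1.88; exact windows ignore mismatched reads.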

Additional observations from a re-analysis of the deposited data

Results flagged for a closer look

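In groups of 4 libraries, a library was set aside for a closer look where its gap to the nearest other library, as a share of the group's range, exceeded Dixon's 95% critical value. This was checked in 38 groups, where chance gives about 1.9 for values with no ties, and found in 5. The flags of CYP4F2 and CYP4F12 come from 0 in every other library of the group, where any count is flagged. The 5 can therefore not be set against 1.9. Of the CYP4F genes, CYP4F2 was at 0.189 CPM (1 count) in siNTC replicate 3 and at 0 in the other 3 controls. CYP4F12 was at 0.544 CPM (3 counts) in si47 replicate 2 and at 0 in the other 3 libraries of that group, which is at the limit that a count of 0 allows. PTGES2 was at 56.3 CPM in siNTC replicate 1 against 48.8 to 49.4 in the other controls, and its call in the mean contrast was lost without that library (edgeR adjusted p = 0.177). PTGES2 was also at 46.3 CPM in si45 replicate 3 against 34.9 to 36.1 in the rest of si45. TPX2 was at 121 CPM in si45 replicate 3 against 79.4 to 85.1 in the rest of si45, and CYP4F3 had its lowest si45 level, 5.37 CPM, in the same library.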

How the results depend on the processing

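Neither CYP4F3 nor a result past the threshold changed direction in any alternative. With the replicate block, the genes past the threshold numbered 577 for si45, 1073 for si46, 2198 for si47 and 1817 for the mean, against 190, 482, 1382 and 1014, and 33, 398 and 108 for si46 against si45, si47 against si45 and si47 against si46, against 4, 24 and 7. In the group pairs other than si45 with si47, same-numbered libraries correlated over 0.1 in 1 to 3 of 4 pairs, though each of the 8 libraries correlated best with its own number in siNTC with si45, si45 with si46 and si46 with si47 (5 of 8 in the other pairs), a hint from the data and not the design. The block gave CYP4F3 1.09 for si47 against si45 (edgeR adjusted p = 0.0118, 2.8% of genes passed). It gave 0.68 for si47 against si46 (edgeR adjusted p = 0.246, 0.761% passed) and 0.41 for si46 against si45 (0.848, 0.233%), which did not pass. The block within only the groups compared gave 1.10 for si47 against si45 (edgeR adjusted p = 1.74e-04, 3.76% passed) and 0.70 for si47 against si46 (0.0473, 1.27%). For si46 against si45 it gave 0.41 (edgeR adjusted p = 0.710, 0.389% passed), which did not pass. Those last fits, chosen after seeing the data, called 52, 505 and 170 genes in the 3 pairs.

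DESeq2 called 292 genes for si45 and 13, 153 and 45 in the pairs, no low-count filter 356 and 14, 166 and 44, and only the groups compared 4 for si47 against si46. Among the lists in the mean contrast, the block called 1 of 10 window, 2 of 12 eicosanoid and 1 of 14 omega-oxidation genes, beside 12.8% of all genes. DESeq2 called 2 eicosanoid genes and 1 omega-oxidation gene, and its share of all genes in the mean is not given here. No filter called 0 vitamin K and E genes, beside 4.38% of all genes. No filter called 1 other CYP4F member, CYP4F2, in each comparison with siNTC. The cause of these changes was not tested.

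Leaving out 1 library kept CYP4F3 at 3.15 (without si45 replicate 2) to 4.07 for si45, 3.75 to 4.46 for si46, 4.39 to 5.09 for si47 and 3.84 to 4.54 for the mean. Between siRNAs it was 0.07 (without si46 replicate 2) to 0.93 (without si45 replicate 2), 0.76 to 1.56 (without si45 replicate 2) and 0.36 to 0.95 for si46 against si45, si47 against si45 and si47 against si46, and no pair was called. Genes past the threshold numbered 97 to 406, 252 to 579, 932 to 1664 and 629 to 1388 for si45, si46, si47 and the mean, and 4 to 7, 10 to 147 and 2 to 23 in the pairs. In the mean, where 629 to 1388 of all genes passed, window and omega-oxidation counts were 0 to 1. Eicosanoid counts were 0 to 2 there, and vitamin K and E counts 0 to 1. Other CYP4F members past the threshold were 0 to 1 for si46, si47 and the mean, since CYP4F2 passed the filter in the smaller fits. With at most 1 count in a control, CYP4F2 did so only through knockdown libraries, so these calls support nothing further. RLE factors shifted the median of all genes by under 0.003. Depth limits the family: a member at 0 counts could be present at up to 0.380 to 0.567 CPM.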
